A study of Caenorhabditis elegans with 2 samples.

Results

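The regions described here are the strong binding peaks of the corepressor GEI-8 on chromosome III of Caenorhabditis elegans that lie away from tRNA genes. They were chosen by the signal of each peak in the list called on both replicates together: the 3000 strongest of 30000 peaks were taken, of which 483 were on chromosome III, and the 33 with a summit within 1000 bp of a tRNA gene were left out. This gave 450 members, out of 2696 peaks chosen in the same way on all 6 nuclear chromosomes. The signal of the members, their number and their share of the list therefore follow from the choice and are given as a description, with no test.

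Chromatin immunoprecipitation with sequencing was carried out on whole worms of strain OP589, which carries the unc-119(tm4063) mutation and an integrated transgene, wgIs589, in which gei-8 bears TY1, EGFP and 3xFLAG tags, and with a rescuing unc-119(+) gene. The worms, of mixed sex, were L4 larvae harvested 48 hours after they had been synchronised by L1 starvation, chromatin was sonicated to a size range of 200 to 800 bp, and the tagged protein was precipitated with an anti-GFP antibody. There was 1 group of 2 biological replicates, both of the same transgenic line, so no comparison between conditions was possible and the spread is that between these samples. The peak lists hold no read counts, so the depth of each library is unknown. Whole animals were used, so tissues are mixed in every value. All positions are in build ce11, also named WBcel235.

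GEI-8 belongs to the family of NCoR and SMRT, corepressors of vertebrates that are large scaffold proteins that do not bind DNA themselves. They are brought to chromatin by DNA-binding proteins, nuclear hormone receptors among them, and carry histone deacetylases with them. Autosomes of this worm have a gene-rich centre with low recombination and 2 arms with more repeats and more recombination, which is why density was followed along the chromosome.

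The bases under 5 of the strongest members that the results below turn on are printed first, as 101 bases of the plus strand centred on the summit, with each GAGAGA (or its reverse complement) in capitals. They are the strongest member, in an intron of pqn-41, then the peaks upstream of rpl-3, sup-26, nhl-2 and cbp-1.
pqn-41 intron, III:1921377-1921477: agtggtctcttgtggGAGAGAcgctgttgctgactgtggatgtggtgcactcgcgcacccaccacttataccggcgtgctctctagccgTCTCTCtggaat
rpl-3 upstream, III:3867488-3867588: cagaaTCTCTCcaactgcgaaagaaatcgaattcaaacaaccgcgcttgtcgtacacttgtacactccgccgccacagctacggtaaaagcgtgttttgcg
sup-26 upstream, III:4282158-4282258: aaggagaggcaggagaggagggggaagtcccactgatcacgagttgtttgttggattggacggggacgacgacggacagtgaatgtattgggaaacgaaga
nhl-2 upstream, III:4899855-4899955: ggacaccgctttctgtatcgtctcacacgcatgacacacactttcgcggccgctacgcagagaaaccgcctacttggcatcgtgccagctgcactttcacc
cbp-1 upstream, III:9765598-9765698: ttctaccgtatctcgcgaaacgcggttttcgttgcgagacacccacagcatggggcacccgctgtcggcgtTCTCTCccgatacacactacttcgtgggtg
The pqn-41 intron holds GAGAGA on both strands within this stretch, rpl-3 and cbp-1 hold it on the minus strand, and it is not among these letters at sup-26 and nhl-2.

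A second set shows a word that recurred among the members, GAGACGCAG, which was picked after the members' sequences had been searched for shared words. The 5 strongest members that hold it within 150 bp of the summit are shown, with the word or its reverse complement in capitals.
pqn-41 intron, III:1925406-1925466: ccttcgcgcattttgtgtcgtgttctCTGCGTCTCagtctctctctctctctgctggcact
Y111B2A.12 intron, III:12612639-12612699: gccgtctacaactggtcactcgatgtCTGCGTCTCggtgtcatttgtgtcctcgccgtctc
R107.5 upstream, III:9054076-9054136: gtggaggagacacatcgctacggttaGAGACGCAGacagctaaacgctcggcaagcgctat
zfp-1 intron, III:8802082-8802142: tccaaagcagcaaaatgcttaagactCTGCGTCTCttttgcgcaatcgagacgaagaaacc
pqn-41 intron, III:1926563-1926623: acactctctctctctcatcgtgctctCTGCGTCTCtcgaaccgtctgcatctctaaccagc
In 4 of these 5 the plus strand reads CTGCGTCTC, the reverse complement of the word.

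A further set shows the longest word, 13 bases, that at least 3 of the 20 strongest members shared. It is in capitals, and is carried by a pair of peaks in the same pqn-41 intron region and by the intron peak of Y111B2A.12, which lies more than 10 Mb away.
pqn-41 intron, III:1925272-1925332: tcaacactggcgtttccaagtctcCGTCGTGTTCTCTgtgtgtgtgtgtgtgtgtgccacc
pqn-41 intron, III:1923651-1923711: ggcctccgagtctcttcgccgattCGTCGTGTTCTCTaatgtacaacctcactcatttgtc
Y111B2A.12 intron, III:12612578-12612638: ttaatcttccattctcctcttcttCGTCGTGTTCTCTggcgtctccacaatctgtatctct
The word occurred 5 times on chromosome III, 3 of them inside pqn-41, and 3 times on the other 5 chromosomes, where it lay in none of the 2246 peaks.

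Chromosome III held more members than its length would give. Its 450 members were 16.7% of the 2696 peaks (exact Clopper-Pearson 95% interval 15.3 to 18.2%, counting error only), whereas the chromosome makes up 13.7% of the nuclear sequence and carries 13.2% of the protein-coding genes. In the replicate lists, treated in the same way, 444 of 2713 peaks of replicate 1 and 489 of 2730 peaks of replicate 2 were on chromosome III, a share of 17.1% ± 1.09 (SD, n = 2). Both replicate shares lay above the share of length. The members stood at 32.6 per Mb against 26 per Mb on the other 5 chromosomes together, a ratio of 1.26 (1.3 ± 0.0999 over the replicate lists, SD, n = 2). At the rate of the other chromosomes 358 peaks would have been found, so the excess was 92.1 peaks.

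Among the 6 chromosomes, III had the highest density of strong peaks. Chromosome II followed with 30.0 per Mb, then X with 27, I with 26.7, IV with 25 and V with 22.4. Counted per 100 protein-coding genes, chromosome III held 17 peaks against 13 on the other chromosomes, and here chromosome X was slightly higher at 17.5. Of the whole list of 30000 peaks, 4639 lay on chromosome III (15.5%), and its density was 1.15 times that of the other chromosomes. Among peaks away from tRNA genes, the share on chromosome III was 19.7% at ranks 1 to 500 (79 of 401, exact 95% interval 15.9 to 23.9%), with 18.6% at ranks 1 to 100, and 17.8% at ranks 501 to 1000. It was 15.7% at ranks 1001 to 2000, 15.9% at ranks 2001 to 3000, 16.4% at ranks 3001 to 6000, 15.6% at ranks 6001 to 12000 and 15.2% at ranks 12001 to 30000. The share did not fall steadily with rank, and as rank also chose the members these values are a description.

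**Figure D1:**
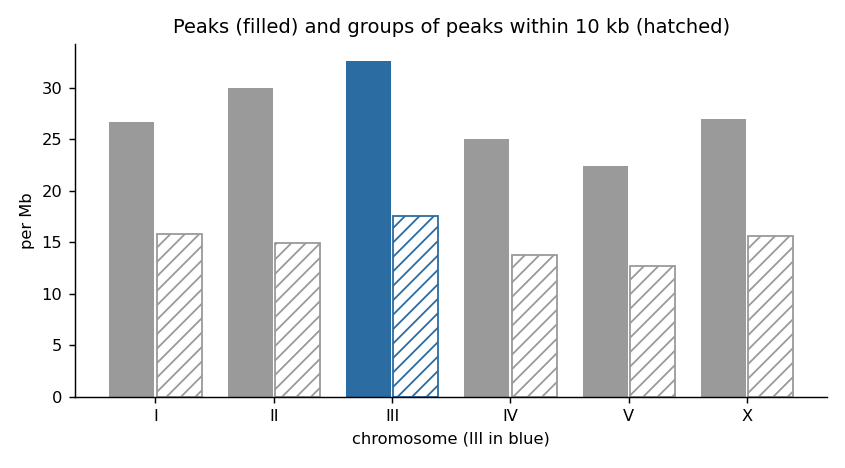
Strong peaks away from tRNA genes per Mb (filled bars) and groups of such peaks, in which neighbouring summits are at most 10 kb apart, per Mb (hatched bars), on each chromosome. Chromosome III is highest by both counts, at 32.6 peaks and 17.5 groups per Mb.

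Beside the members, the peaks just outside the rank threshold had almost the same signal. The 3 weakest members, at ranks 2969, 2990 and 3000, had signals of 87.49, 87.35 and 87.28. The next 3 peaks of the chromosome away from tRNA genes, at ranks 3001, 3004 and 3006, had 87.27, 87.26 and 87.23. At the other threshold, the member nearest to a tRNA gene had its summit 1140 bp away and the farthest peak left out was at 968 bp.

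The members were spread along the whole chromosome, with fewer near its left end. From left to right, the 1 Mb bins held 22, 20, 16, 36, 34, 46, 35, 37, 47, 34, 37, 24 and 34 members, and the last, shorter bin held 28 (35.7 per Mb). Of these 14 bins, 10 were above the mean rate of the other chromosomes, and the 4 below it were the first 3 from the left and the twelfth. The median over the 13 full bins was 34, against 25 over the 84 full bins of the other chromosomes, which ranged from 1 to 55. Of those 84 bins, 19 held more members than the median bin of chromosome III, so its bins were not outside the range seen elsewhere. The largest stretch with no member was 388666 bp, between summits at 2172103 and 2560769 in the left arm. On the other chromosomes the largest such stretch ran from 338426 bp on I to 1021967 bp on V.

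**Figure D2:**
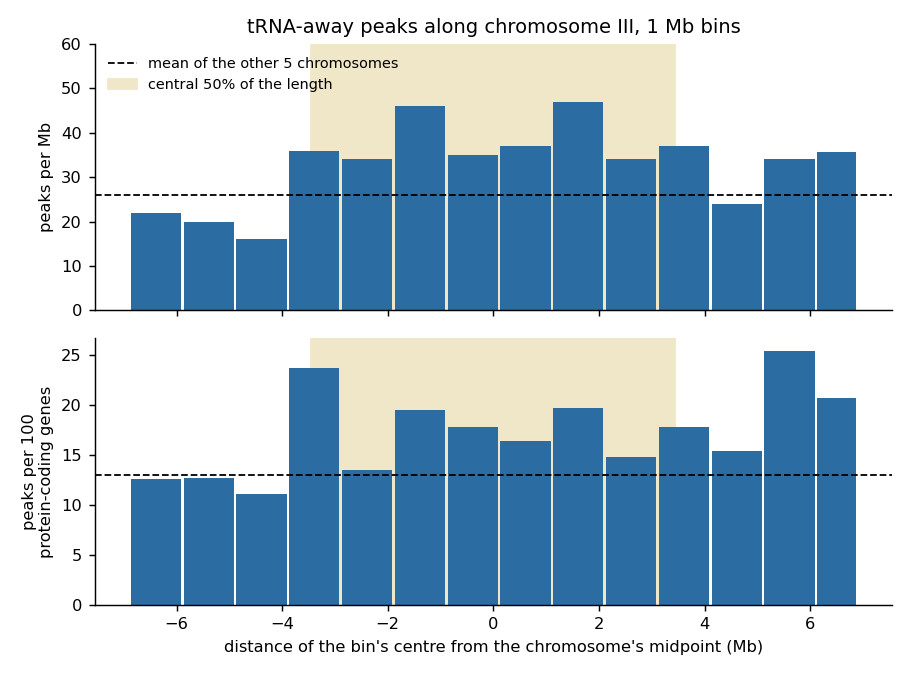
Members per Mb (upper panel) and per 100 protein-coding genes (lower panel) in 1 Mb bins of chromosome III, against the distance of the bin's centre from the midpoint of the chromosome. The dashed lines are the values for the other 5 chromosomes (26 per Mb and 13 per 100 genes) and the shaded band is the central 50% of the length. The 3 bins at the left end lie below both lines.

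The central 50% of the chromosome, from 3445951 to 10337850, held 273 members, or 60.7% (exact 95% interval 56.0 to 65.2%, 60.5% ± 2.31 over the replicate lists, SD, n = 2). It holds 59.2% of the protein-coding genes of the chromosome and 56.1% of its 4639 peaks in the whole list, so the share of genes lies inside the interval. The centre had 39.6 members per Mb and the arms 25.7. On the other 5 chromosomes together these densities were 31.2 and 20.7, so chromosome III was 1.27 times as dense in its centre and 1.24 times in its arms. Of the excess of 92.1 peaks, the centre carried 57.8 and the arms 34.2. Counted per 100 genes, centre and arms hardly differed, at 17.5 and 16.4 members, but the value of the arms joins unlike ends. The first 3 bins from the left had 12.6, 12.7 and 11.1 members per 100 genes, and the last 3 had 15.4, 25.4 and 20.7.

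The 2 arms were unlike each other. The left arm held 65 members, 18.9 per Mb, and the right arm 112, 32.5 per Mb. Arms on opposite sides of chromosome II differed more, with 8.64 per Mb on the left and 38.0 on the right. The centre's share on the other autosomes was 61.0% on I, 61.1% on II, 61.9% on IV and 69.2% on V, and 47.8% on X, so chromosome III was close to I, II and IV. Members of the centre and of the arms had similar signals, with medians of 111.7 and 107.4.

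Clusters held a part of the members, and a part of the excess was counted among them. With summits at most 10 kb apart joined, the 450 members formed 241 groups, of which 141 were single peaks. There were 18 groups of 5 or more, called clusters here, and they held 109 members, or 24.2% (24.1% ± 0.281 over the replicate lists, SD, n = 2). On the other chromosomes such clusters held 19.8% of the peaks together. The share was 28.4% on II, higher than on chromosome III, and 16.9% to 18.5% on I, IV, V and X. When peaks were sorted by the size of their group, chromosome III had 1.54 times the density of the others for peaks in clusters and 1.53 times for peaks in pairs. The ratio was 1.14 for peaks standing alone and 0.981 for peaks in groups of 3 or 4. Sorted in this way, 41.5% of the excess was counted in clusters, 42% in pairs and 18.3% in single peaks, with -1.87% in groups of 3 or 4. A higher density by itself brings more peaks within 10 kb of each other, so this split cannot show which groups made the excess.

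With its 5 largest groups left out, chromosome III still had 29.8 members per Mb, against 26 on the other chromosomes with nothing left out. Which groups made the excess was not tested. The 3 largest groups held 27 members, the 5 largest 39 and the 10 largest 69, which are 29.5%, 42.6% and 75.3% of the excess if nothing is left out elsewhere. Leaving out groups of chromosome III alone, largest first, 15 had to go before its density fell under that of the other chromosomes. When the 5 largest groups of every chromosome were left out with their sequence, the ratio was 1.27, as against 1.26 with all peaks (1.3 ± 0.105 over the replicate lists, SD, n = 2). When every group on every chromosome was counted as 1 site, the ratio was 1.21 (1.21 ± 0.111, SD, n = 2), and chromosome III remained first with 17.5 groups per Mb, against 12.7 to 15.8 on the others. That ratio depended on the joining distance and was 1.09 when summits at most 20 kb apart were joined. Without the densest 1 Mb bin of chromosome III the ratio was 1.21, and without its 5 densest bins 1.08. With the 5 densest bins of every chromosome left out it was 1.38.

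**Figure D3:**
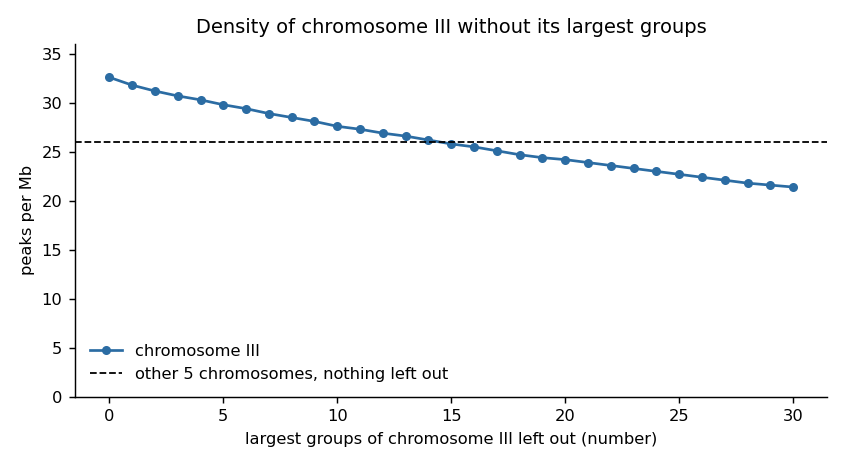
Density of members on chromosome III, in peaks per Mb, after its largest groups are left out one after another (x axis, number of groups left out; length unchanged). The line starts at 32.6 and falls under the 26 per Mb of the other 5 chromosomes (dashed) at the removal of the fifteenth group, with no sudden step.

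Some neighbouring members may not be separate sites. In 36 pairs of neighbours the summits were within 1000 bp of each other, and 19 pairs of members overlapped. There were 38 members that shared their matching peak in both replicates with another member. With summits at most 1000 bp apart counted as 1 site on every chromosome, the density ratio was 1.28, while the share in clusters fell to 18.1%. The smallest distance between neighbouring summits was 199 bp and the median 12308 bp, against 9857 to 17073 bp on the other chromosomes.

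The cluster with the most members, 11, spanned 37.8 kb (summits from 10708880 to 10746725) and ran over ran-1, the Ran GTPase of nuclear transport, rib-2, a heparan sulfate glycosyltransferase gene, tbb-1, a beta-tubulin gene, K01G5.8, smap-1, tat-3, W09D10.4 and W09D10.5. Its peaks were of ordinary strength, with a median signal of 102.0 against 109.2 over all members. The strongest, at rank 177, lay in the 5′ UTR of W09D10.5, 101 bp downstream of the 5′ end, and was ranked 83 and 336 in the replicates. Other summits fell in the promoter windows, from 1000 bp upstream to 200 bp downstream of the annotated 5′ end, of W09D10.4 and smap-1.

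The next cluster held 9 members over 20.3 kb (8785638 to 8805932) and lay mostly inside zfp-1, the worm relative of the leukaemia gene AF10 and a chromatin regulator. Of its members, 6 were in introns. They were strong, with a median signal of 182.0. The strongest, an intron peak of zfp-1 at rank 57, was ranked 33 in replicate 1 and 188 in replicate 2, and the next, at rank 63, was ranked 56 and 82. Promoter windows with a member in this cluster were those of F54F2.6 and K02D10.8.

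The next cluster, with 7 members over 13.6 kb (12599222 to 12612860), covered epc-1, a relative of enhancer of polycomb, gldi-8 and Y111B2A.12. The intron peak of Y111B2A.12 (12612541 to 12612776) was at rank 12 and was ranked 12 and 15 in the replicates. A summit between epc-1 and Y111B2A.12, at rank 200, lay 93 bp upstream of epc-1 and 610 bp upstream of Y111B2A.12.

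The cluster with the strongest peaks was the one inside pqn-41, a gene for a glutamine-rich protein that is needed for the death of the linker cell in males. Its 6 members spanned 16.6 kb within this gene of 33.6 kb, and 5 of them were in introns. Their signals in the pooled list were 611.2, 509.5, 397.8, 285.8, 132.6 and 95.7, at ranks 3, 9, 25, 84, 891 and 2234. The ranks of these 6 were 4, 39, 23, 219, 1267 and 3246 in replicate 1 and 4, 1, 29, 46, 1248 and 2991 in replicate 2. The 4 strongest were thus high in both replicates, and the second of them was the strongest peak of all in replicate 2. None of the 6 lay in the promoter window of a protein-coding gene. The sequences with the 13-base word shown above come from the peaks at ranks 9 and 25.

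Clusters of 6 members also lay at Y39E4B.6, at kin-18 and mvk-1, at ubq-1, at rps-13, thoc-2 and akap-1, and at baf-1 and spk-1. Counted by host gene, 212 protein-coding genes held a member summit within their bounds, and 12 of them held 3 or more. The most were 8 in zfp-1 and 6 in pqn-41. The others, with 3 each, included tra-1, the GLI-like transcription factor that ends the sex determination pathway, ncl-1, a repressor of nucleolar size, mtm-3, a myotubularin gene, akap-1 and gei-4.

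Chromosome III is also where the endogenous gei-8 gene (8111168 to 8121232) and the endogenous unc-119 gene (10902641 to 10908935) lie, and the transgene holds further copies of DNA from both. There were 8 members within 50 kb of gei-8 and 2 within 50 kb of unc-119. A cluster of 6 members began in gei-8 and ended beyond rpl-21, and its strongest peak, at rank 433, lay 3354 bp upstream of gei-8 and was ranked 439 and 663 in the replicates. Reads from the transgene and from the endogenous loci cannot be told apart in these files. With all peaks within 50 kb of either gene left out, the density ratio was 1.23.

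Repeated sequence touched few members. The share of 36-base words of the peak that occur once in the genome was 100% for 392 of the 450 members, and 21 members (4.67%) were below 90%, against 3.87% of the peaks of the other chromosomes. Without peaks below 90% the density ratio was 1.25. The base composition was the same as elsewhere, with a median GC content of 42.2% from 150 bp before to 150 bp after the summit for members and for the other chromosomes' peaks, against 35.5% over all windows of that length of chromosome III.

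There were 231 members (51.3%, exact 95% interval 46.6 to 56.0%) with a matching peak among the 3000 strongest of both replicates, against 49.6% on the other chromosomes, and 28 (6.22%) with one in neither. Across the 439 members with a matching peak in both replicates, replicate 1 and replicate 2 signals were related with a Spearman rho of 0.394 (0.363 on the other chromosomes). These correlations are across peaks selected by their pooled signal, which derives from both replicates, and peaks are not independent replicates. As 38 members shared their matching peak in both replicates with another member, some replicate peaks enter these counts and correlations more than once. The F54F2.6 member at rank 2940, for example, has replicate ranks of 427 and 229, those of the member at rank 393. Among the members, 158 (35.1%) were in the list kept by the irreproducible discovery rate procedure, which holds no other peaks than the top ranks of the pooled list, so this is again a threshold on rank. With only peaks that were strong in both replicates, the density ratio was 1.3.

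What lay at the summits was much as on the other chromosomes. Of the members, 168 (37.3%, exact 95% interval 32.8 to 42%) were intergenic, 115 (25.6%) in introns, 104 (23.1%) in coding exons, 29 (6.44%) in RNA genes or pseudogenes, 21 (4.67%) in 3′ UTRs and 13 (2.89%) in 5′ UTRs. On the other chromosomes these shares were 40.2%, 24.5%, 20.3%, 8.5%, 3.29% and 3.16%. The density of chromosome III was the higher in each kind of sequence, but the ratios have no interval. The difference was small in introns (21.9 against 20.1 per Mb), and 5′ UTRs held only 13 members. Per Mb of that sequence, chromosome III had 1.43 times the density of the others in intergenic DNA, 1.36 times in coding exons, 1.51 times in 3′ UTRs, 1.47 times in RNA genes and pseudogenes, and 1.22 times in 5′ UTRs. In introns, which make up 38.1% of chromosome III and 31.7% of the others, it was 1.09 times. At the rates of the other chromosomes the sequence make-up of chromosome III would give 343 peaks, a ratio of 1.31.

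Promoter windows of protein-coding genes held 131 members, or 29.1% (exact 95% interval 25 to 33.5%, 27.9% ± 1.58 over the replicate lists, SD, n = 2), against 31.1% of the peaks of the other chromosomes. Of these, 102 lay in the window of 1 gene and 29 in the windows of several. There were 24 in windows of genes on both strands. Of the 168 intergenic members, 83 were in a promoter window. Trans-splicing removes the original 5′ part of many worm transcripts, so annotated 5′ ends need not be the points where transcription begins.

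Below, bound means that at least 1 summit fell in the gene's window. On chromosome III 158 of 2640 protein-coding genes were bound, or 5.98% (exact 95% interval 5.11 to 6.96%, 5.93% ± 0.991 over the replicate lists, SD, n = 2). On the other chromosomes 4.28% were bound, and over all 6 chromosomes 4.5%. The choice of members sets how many summits can fall into windows, so this share is a description.

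The strongest member in a protein-coding promoter was that of rpl-3, followed by those of nhl-2 and tag-340, of tasp-1 and K01G5.10, and of cbp-1. The peak at rpl-3, a large ribosomal subunit gene (3867381 to 3867715, summit 316 bp upstream, intergenic), had a signal of 576.4 at rank 5, and was ranked 9 and 3 in the replicates. The peak at nhl-2, a TRIM-NHL cofactor of microRNA silencing, and its neighbour tag-340 (4899799 to 4900064, 820 bp upstream of nhl-2, inside the ncRNA gene F26F4.14) was at rank 8 and ranked 11 and 9. At tasp-1, a taspase gene, and K01G5.10 (10759117 to 10759376, 54 and 731 bp upstream) the peak was at rank 14 and ranked 28 and 6. At cbp-1, the worm CBP/p300 acetyltransferase (9765516 to 9765738, 861 bp upstream, intergenic), it was at rank 24 and ranked 15 and 40. All of these were among the 50 strongest peaks of both replicates.

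Further strong promoter members lay at R107.5 (rank 46, 253 bp upstream), at rps-1, a small ribosomal subunit gene, and ifet-1, a translational repressor of the germline (rank 55, 258 and 510 bp upstream), at rpl-35 (rank 101), at cox-6A, a cytochrome c oxidase subunit gene (rank 110), at hlh-11, a bHLH transcription factor gene (rank 120), and at kel-3 (rank 123). Strong members outside promoter windows were those of pqn-41 and zfp-1 described above, the peak 1984 bp upstream of sup-26, an RNA-binding protein gene of sex determination (4281970 to 4282323, rank 6, ranked 7 and 5), and a coding exon peak of dos-3, a Notch co-ligand gene (rank 39, ranked 40 and 45). The peak at rank 43 lay inside dhc-4, a dynein heavy chain gene, on a snRNA gene described below, and its nearest 5′ end was that of col-94.

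Of the gene lists examined, chosen with earlier results of these data known, the largest bound counts on chromosome III were for ribosomal proteins and chromatin regulators. Of 18 cytosolic ribosomal protein genes of the chromosome, 5 were bound (27.8%, against 20 of 63 elsewhere, 31.7%). Besides rpl-3, rps-1 and rpl-35 these were rps-12 and rpl-6, whose summits lay within 1000 bp of a snoRNA gene. Of 11 genes of the DREAM complex, the synMuv pathway and other chromatin regulators 5 were bound (45.5%, against 5 of 31 elsewhere). They were cbp-1, the DREAM complex genes lin-9 and lin-52, the zinc finger gene lin-13, and met-2, a histone H3 lysine methyltransferase gene. Apart from cbp-1 these were weak members, at ranks 1944 (lin-9), 2013 (lin-13), 2516 (met-2) and 2955 (lin-52), and each of these 4 had a rank above 3000 in one of the replicates. Of 3 microRNA silencing and heterochronic genes 2 were bound, against 5 of 17 elsewhere (29.4%). They were nhl-2 and cgh-1, a DEAD-box RNA helicase gene (rank 1960).

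Of the 11 respiratory chain and ATP synthase genes, cox-6A and cox-5A (rank 329) were bound (18.2%, against 3 of 36 elsewhere, 8.33%). One gene each was bound of the 12 chaperone genes (hsp-60, the mitochondrial chaperonin, rank 199), the 12 translation factor and tRNA synthetase genes (eef-1B.1), the 8 nuclear hormone receptor genes (nhr-239), the 19 neuropeptide and insulin-like genes (flp-14), the 5 muscle structure genes (act-5, which in this worm is the actin of intestinal microvilli) and the 33 chemoreceptor genes (srv-1). Elsewhere the bound shares of these lists ran from 0.676% (chemoreceptors) to 13% (chaperones). No gene was bound of the 6 Hox genes, all of which lie on chromosome III, nor of the 4 Notch pathway, 22 mitochondrial ribosomal protein, 8 proteasome, 4 histone, 13 cuticle collagen, 12 homeobox, 71 F-box and MATH-BATH, 14 C-type lectin and 10 xenobiotic enzyme genes of the chromosome. With so few genes per list, a difference from the 5.98% of all protein-coding genes was not tested.

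Among RNA gene classes, the bound shares on chromosome III and elsewhere lay farthest apart for snRNA genes, which are few, and no difference between classes was tested. Of the snRNA genes of chromosome III 8 of 13 were bound (61.5%, exact 95% interval 31.6 to 86.1%), against 15 of 116 elsewhere (12.9%, interval 7.42 to 20.4%) and 17.8% over all chromosomes. The count was also 8 in each replicate list, but these need not be the same genes. The peak behind sls-2.14 and sls-2.15 had no matching peak in replicate 2. Only 5 peaks stood behind these 8 genes. Of miRNA genes, 8 of 27 were bound (29.6%, interval 13.8 to 50.2%), against 12% elsewhere and 13.8% over all chromosomes, with 9 in replicate 1 and 5 in replicate 2. The share of snoRNA genes was 14 of 54 (25.9%, against 29.1% elsewhere and 28.6% over all), from 12 peaks, and that of long or other ncRNA genes 51 of 803 (6.35%, against 6.22% elsewhere and 6.23% over all). Pseudogenes were bound at 3 of 180 (1.67%, against 0.987% over all chromosomes) and piRNA genes at 1 of 78 (1.28%, against 0.814% over all).

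**Figure D4:**
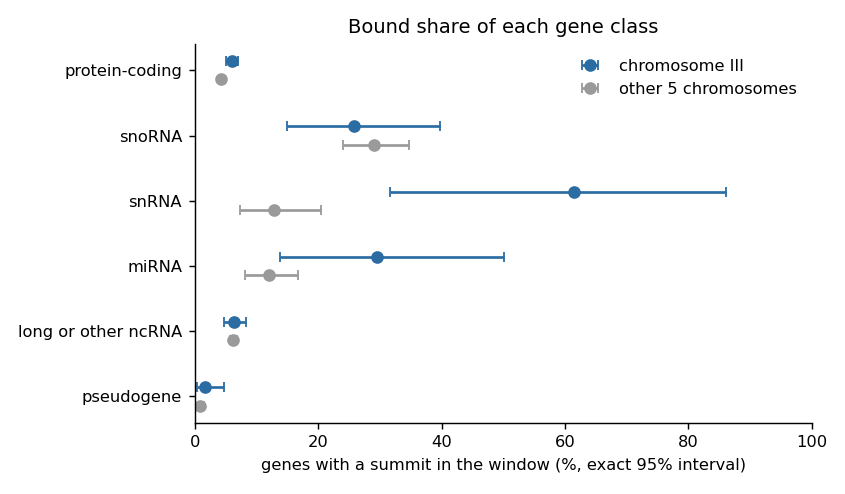
Share of the genes of each class with a summit in the window from 1000 bp upstream to 200 bp downstream of the 5′ end, for chromosome III (blue) and the other 5 chromosomes (grey), with exact 95% intervals for counting error. The shares were 61.5% and 12.9% for snRNA genes and 5.98% and 4.28% for protein-coding genes. The intervals treat genes as separate, but neighbouring genes can share 1 peak. Only 5 peaks stood behind the 8 bound snRNA genes of chromosome III. Members were chosen by signal and are denser on chromosome III, and no difference between the 2 sets was tested.

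Among the bound snRNA genes, 5 were SL2 trans-spliced leader genes, of the family that supplies the leader of downstream genes in operons. Of the 6 such genes on chromosome III, 5 were bound from 2 peaks: 1 peak inside glr-2 (7141251 to 7141700, rank 1095) lay in the windows of sls-2.5, sls-2.16 and sls-2.18, and 1 peak inside W09D6.5 (11090135 to 11090584, rank 1548) in those of sls-2.14 and sls-2.15. On the other chromosomes 4 of 12 were bound. The peak inside glr-2 was ranked 753 and 2907 in the replicates, and that inside W09D6.5 was ranked 329 in replicate 1 and had no matching peak in replicate 2. The summit inside glr-2 lay 923 bp upstream of sls-2.5, 815 bp upstream of sls-2.18 and 85 bp downstream of the 5′ end of sls-2.16. The summit inside W09D6.5 lay 650 bp upstream of sls-2.15 and 163 bp downstream of the 5′ end of sls-2.14. A stronger member, at rank 413, lay 128 bp from the unbound sls-2.8, outside its window.

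The other 3 bound snRNA genes, of 7 on the chromosome (11 of 104 elsewhere), had stronger peaks with summits at their 5′ ends. The peak at W05B2.8 (10989522 to 10989747, summit 9 bp downstream of the 5′ end, inside dhc-4) was at rank 43, that at F54D8.7 (5080704 to 5081153, 31 bp upstream, also 795 bp upstream of cox-6A) at rank 110, and that at R07E5.16 (4413932 to 4414381, 28 bp upstream, inside mpc-1) at rank 656. Of their 36-base words 79.6%, 81.7% and 75.7% were unique in the genome, so near-identical gene copies may share reads and these values are uncertain.

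The strongest miRNA member was 194 bp upstream of mir-80, a miRNA of the bantam family (8865336 to 8865785, rank 191, ranked 253 and 155). It belonged to a cluster of 5 members over 8.95 kb at K01F9.2, in which summits also lay 221 bp upstream of mir-90 (rank 811) and 160 bp downstream of the 5′ end of mir-238 (rank 1141). Other miRNA members were at mir-4936 (rank 398, also 681 bp upstream of nduf-9) and mir-2214 (rank 664). A single peak inside gcn-1 (2171878 to 2172327, rank 1575) lay in the windows of mir-229, mir-64 and mir-65. It was ranked 596 in replicate 1 and 3261 in replicate 2.

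The strongest snoRNA members were at T04A8.17 (4689764 to 4689886, 60 bp upstream, rank 170, ranked 213 and 160), inside ppat-1, at C05D2.15 (46 bp upstream, rank 208), inside madf-11, and at F30H5.4 (502573 to 503022, 6 bp upstream, rank 309, ranked 95 and 1927). Summits lay within 1000 bp of a snoRNA gene for 19 members (4.22%, against 5.48% on the other chromosomes). Of 5 srpr genes, a family named for signal recognition particle RNA, 4 are on chromosome III, and 3 of these had a member summit inside the gene. The words of these peaks were among the least unique of all members, from 54.7% to 62.2%, so their reads cannot be assigned to one copy with certainty.

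Short words known from factor binding were counted in windows from 150 bp before to 150 bp after the summits, on both strands. GAGAGA, the word of GA repeats, was in 39.6% of the members (exact 95% interval 35 to 44.2%), in 36.2% of the peaks of the other chromosomes, in 15.6% of all adjoining windows of that length of chromosome III and in 23.2% of its promoters. CACGTG, an E-box, was in 12.2% of members, 14.2% of the peaks elsewhere and 5.22% of all windows. TGATAA, a site of the ELT factors of the intestine, was in 22.4%, 27.1% and 23.8%, and AGGTCA, a half-site of nuclear hormone receptors, in 8.67%, 7.7% and 6.57%. GTTCGANNC, the core of the B box that directs RNA polymerase III to tRNA genes, was in 3.78% of members, 3.43% of the peaks elsewhere and 2.44% of all windows, whereas 64.8% of the 304 peaks within 1000 bp of a tRNA gene held it. All windows of chromosome III were not matched to the members in GC content (median 35.5% against 42.2%). In the 4639 peaks of the chromosome in the whole list, GAGAGA was in 23.4% and CACGTG in 8.28%. A match to such a word is a description and not a binding site.

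The 4 strongest of the 17 members with the B box word were at the pqn-41 intron, cox-6A and F54D8.7, madf-11 and C05D2.15, and F30H5.4, and the last 3 of them lay beside snRNA or snoRNA genes. Their sequences around the word, in capitals, are as follows.
pqn-41 intron, III:1925453-1925493: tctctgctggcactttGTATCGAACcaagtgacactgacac
F54D8.7 and cox-6A, III:5080985-5081025: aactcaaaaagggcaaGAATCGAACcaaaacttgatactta
C05D2.15 and madf-11, III:5602163-5602203: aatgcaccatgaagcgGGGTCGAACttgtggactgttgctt
F30H5.4, III:502764-502804: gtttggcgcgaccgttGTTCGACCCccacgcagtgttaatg
The first 3 hold the word on the minus strand and the last on the plus strand.

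The word GAGACGCAG was in 48 of the 450 members (10.7%) and in 18 of the 100 strongest, against 1.69% of all windows of chromosome III. It was in 7.48% of the peaks of the other chromosomes and in 1.11% of their windows. The word itself was densest on chromosome III, at 66.4 occurrences per Mb, and least dense on X, at 18.2. Among the other chromosomes it had 55.1 per Mb on I, 49.0 on II, 44.4 on IV and 39.4 on V. Members in promoter windows held it at 9.16% and other members at 11.3%. Since the word was picked from the members' own sequences, its share among them is a description.

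**Figure D5:**
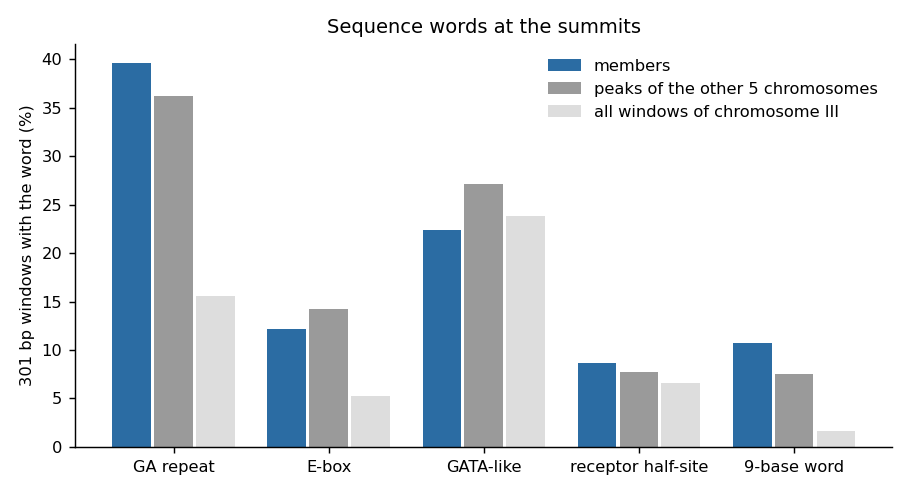
Share of windows reaching 150 bp to each side of the summit that hold each word on either strand, for the members (blue), the strong peaks of the other 5 chromosomes (dark grey) and all windows of chromosome III (light grey). The GA repeat (39.6% of members, 15.6% of windows) and the E-box (12.2% and 5.22%) are more frequent at the members than over the windows of chromosome III. The 9-base word (10.7% and 1.69%) was picked from words ranked by this same contrast, so its difference follows from the choice. The windows of chromosome III were not matched to the members in GC content.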

How the data were processed

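Peaks were called by the authors against 1 control alignment for each replicate and for both together, per the texts deposited beside the files, with no name of the aligner or caller among the sources used. The signal value is the authors' value for each deposited peak, on an unstated scale, and was used by rank within a list. The deposited −log10 q-value was not used for any result. The summit is the deposited offset in each peak. Members, gene lists and measures were chosen with earlier results of these data known.

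Summits were joined to the Ensembl annotation, release 115, and to the RefSeq genome of the same assembly. A replicate peak matched a member when they overlapped, and the strongest such peak was used. Where annotations overlapped at a summit, RNA genes and pseudogenes came first, then coding exons, UTRs (5′ before 3′), introns and last intergenic DNA. RNA gene names are those of RefSeq where matched by gene ID. Shared words of 8 bases were searched among those in at least 40 members, and ranked by their share among members over that in all windows of chromosome III. Genes were named by rule: those nearest to or holding the 20 strongest members, those bound in the 3 largest clusters, up to 3 per list, RNA genes of the 10 strongest members near snoRNA, snRNA or miRNA genes, gei-8 and unc-119. Others, among them the host genes, the remaining clusters, all bound snRNA and miRNA genes and the srpr genes, were chosen after their values were seen. Counting functions were tested on simulated data. No test was made, and intervals cover counting error at a confidence level of 95% only. Computation used pandas 2.3.3 and numpy 2.4.6 for counts, scipy 1.17.1 for intervals and matplotlib 3.10.9 for plots, in Python 3.11.15.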

Additional observations from a re-analysis of the deposited data

How the results depend on the processing

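The 9 measures were recomputed with other numbers of peaks, tRNA distances, positions, cluster rules, windows and lists. Chromosome III had the higher density in every setting run for a density ratio. The ratio over all chosen peaks was lowest, at 1.2, with no tRNA rule, where the share of peaks was 16.1%. With no tRNA rule and clusters counted once, the ratio was 1.14. The measures that are shares have no direction that could change. A value counted as moved when it changed by more than the SD over the replicate lists. By this rule the clustered share moved in 11 of 15 settings. With as many peaks as the reproducible list holds (the short list) and with 1500 and 6000 peaks, the clustered share was 6.96%, 9.42% and 37.5%, the promoter share 37.3%, 31.4% and 24.7%, and the bound protein-coding share 2.88%, 3.41% and 9.85%. With the short list the share of peaks was 18.5%, the density ratio 1.42, and 1.45 without the 5 largest clusters. Clusters counted once gave 1.39 and 1.33 with the short list and 1500 peaks, and 1.09 with a 20 kb gap. The intron share was 20.3% and 22% with these, and the centre share 63.2% and 57.5% with 1500 and 6000. The middle 1/3 held 39.8%. The clustered share was 10.4% and 38.4% with gaps of 5 and 20 kb, 43.8% for groups of 3 or more, 23.2% with no tRNA rule, and 23.4% and 22.7% without peaks near the transgene genes and snoRNA genes. Windows of 500 and 2000 bp upstream gave promoter shares of 18.9% and 43.1% and bound shares of 3.41% and 8.98%. Each replicate list alone ranged from 16.4% to 17.9% for the share, 1.23 to 1.37 for the ratio, 1.22 to 1.37 without the 5 largest clusters, 23.9% to 24.3% clustered and 26.8% to 29.0% in promoters. Settings added after seeing the data gave 18.1% clustered with neighbours merged, and 64.1% in the centre and 32.5% in promoters for peaks strong in both replicates. The causes were not tested. No paired analysis was possible because there is 1 group.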
